A study of Caenorhabditis elegans with 16 samples.

Results

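The numbered col genes of Caenorhabditis elegans encode collagens, most of them building blocks of the cuticle, the exoskeleton that covers the worm. Members were the genes whose symbol, in the deposited sheet of the interaction analysis, is col followed by a hyphen and a number, which gave 75 genes of 12690 in that sheet. Of these, 73 are listed there as protein-coding and 2, col-66 and col-182, as pseudogenes. Messenger RNA was sequenced from whole starved first-stage (L1) larvae of 4 genotypes with 4 libraries each. Wild type was strain N2. The irld larvae were strain LRB444 with irld-39(duk1) and irld-52(duk17), alleles of a pair of genes that encode proteins with insulin-receptor L-domains. The daf-2 larvae were strain CB1370 with daf-2(e1370), a reduction-of-function allele of the insulin/IGF receptor. The triple-mutant larvae carried daf-2(e1370), irld-39(duk1) and irld-52(duk17) together, in the independent lines LRB457 (replicates 1 and 3) and LRB458 (replicates 1 and 4). Embryos came from bleached well-fed adults, hatched without food at 20 °C, and 10000 larvae per library were frozen 24 h after bleaching, 12 h after hatch. N2, LRB444 and CB1370 are 1 strain each, so an effect of an allele cannot be told apart from other differences between strains.

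A cuticle collagen is a short protein with repeated Gly-X-Y triplets that folds into a triple helix with its partners, is cut at its ends, secreted by the epidermis and cross-linked into the cuticle. The worm replaces its cuticle at each molt, and collagen genes are transcribed in waves timed to that cycle. Starved L1 larvae arrest development after hatching and do not molt until they are fed, and in adults reduced daf-2 signalling is known to raise the expression of collagen genes. Single mutants of most numbered col genes have no described phenotype, so for many members only the collagen identity can be stated.

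The 16 libraries held 14033534 to 24903552 counts in genes, and 35.7 to 38.2% of reads were unaligned. Levels are given as CPM, the usual unit of gene counts scaled to library size, in the order of replicates 1 to 4. For triple-mutant larvae the order is LRB457 replicates 1 and 3, then LRB458 replicates 1 and 4. Over all 14058 genes tested, the first principal component held 42.4% of the variance and placed the 8 libraries without daf-2(e1370) between -38.3 and -31.4. daf-2 libraries lay at 38.1, 6.9, 58.1 and 4.4 on it and triple-mutant libraries at 46.2, 50.2, 19 and 61.4, so daf-2 replicates 2 and 4 and LRB458 replicate 1 stood apart from the other libraries with that allele. Summed levels of 5 epidermal markers that are not collagens, lin-26, elt-1, elt-3, nhr-25 and che-14, were 92 to 157 CPM in wild type, 125 to 171 in irld larvae, 130 to 164 in daf-2 larvae and 132 to 155 in triple-mutant larvae, and each was at 1 CPM or more in every library. These ranges overlapped. The 3 collagens also listed as epidermal markers were dpy-7 and sqt-3, described below, and rol-6, which was under 1 CPM in every library. Early-embryo markers summed to 95.1 to 136 CPM in wild type, 74.3 to 147 in irld larvae, 43.4 to 115.2 in daf-2 larvae and 50.6 to 92.5 in triple-mutant larvae. The part of these differences in the results was not tested. In whole larvae, fewer cells of a type and less RNA per cell cannot be told apart.

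The members are compact genes. Their median coding length was 912 bases, against 1122 over the tested protein-coding genes, and their median number of coding exons was 2, against 6. Of the 73 members with a coding length, 64 had at most 1100 bases. The exception at the upper end was col-99 (WBGene00000674), with 2205 coding bases in 18 exons. It encodes a transmembrane collagen studied in the nervous system rather than a typical cuticle collagen.

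Expression was concentrated in few members. Compared per kilobase of exon over all 16 libraries, col-42 (WBGene00013489, chromosome V) was highest with 4880 CPM per kb. It was followed by col-107 with 1915, col-98 with 1803, col-103 with 1672, col-160 with 1184 and col-39 with 1159. The lowest were col-87 with 0.750 and col-7 with 0.744 CPM per kb. The 10 members highest in CPM held 89.8 to 91.5% of the summed level of all 75 in each of the 4 groups. col-42 alone held 25.2% in wild type, 22.6% in irld larvae, 29% in daf-2 larvae and 30.2% in triple-mutant larvae.

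**Figure D1:**
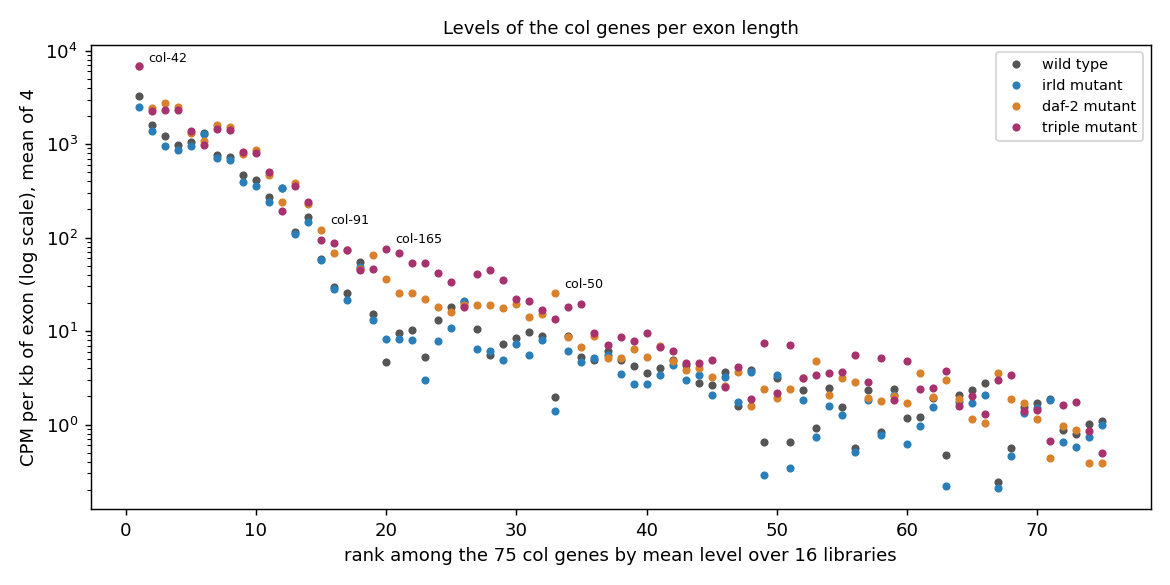
Mean level of each of the 75 col genes in each genotype, as CPM per kb of exon on a log scale, ordered by the mean over 16 libraries. Levels span from 4880 CPM per kb for col-42 to 0.744 for col-7, and the daf-2 and triple-mutant points lie above the other groups for most members, with col-39 among the exceptions.

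A larger share of the gene counts fell on these collagens in larvae that carried daf-2(e1370). The summed level of the 75 members was 12659, 16441, 13501 and 11937 CPM in wild type and 13238, 14757, 8803 and 10068 CPM in irld larvae. It was 26943, 21115, 30554 and 20922 CPM in daf-2 larvae and 24029, 21437, 23532 and 27113 CPM in triple-mutant larvae. Every library with daf-2(e1370) was above every library without it. As shares of the gene counts, this was 0.92 to 1.49% without the allele and 2.19 to 2.87% with it. The means were 13634 ± 1977 in wild type, 11717 ± 2755 in irld larvae, 24884 ± 4701 in daf-2 larvae and 24028 ± 2344 CPM in triple-mutant larvae (SD, n = 4); this sum was not tested.

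In daf-2 larvae, 24 of the 75 members rose and 6 fell against wild type, by edgeR's quasi-likelihood test at an adjusted p under 0.05 over all genes. That is 32% of members higher where 7.97% of all tested genes were, and 8% lower where 7.74% were. The median log2 fold change of the members was 0.60, from -2.07 to 3.83, against -0.003 over all genes. The libraries of the 2 groups did not overlap for 24 members on the higher side, where 9.45% of all genes had that pattern. On the lower side this held for 6 members, with 8.81% of all genes.

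In the irld background the same allele was accompanied by more calls. Against irld larvae, 49 members rose in triple-mutant larvae and 4 fell, that is 65.3% of members higher where 9.80% of all tested genes were, and 5.33% lower where 8.64% were. The median log2 fold change of the members was 1.25, from -1.47 to 4.68, against -0.011 over all genes. The 8 libraries did not overlap for 52 members on the higher side, where 13.1% of all genes had that pattern. On the lower side this held for 3 members, with 13.9% of all genes. The lower count was 2 without irld replicate 2, LRB457 replicate 3, LRB458 replicate 1 or LRB458 replicate 4.

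**Figure D2:**
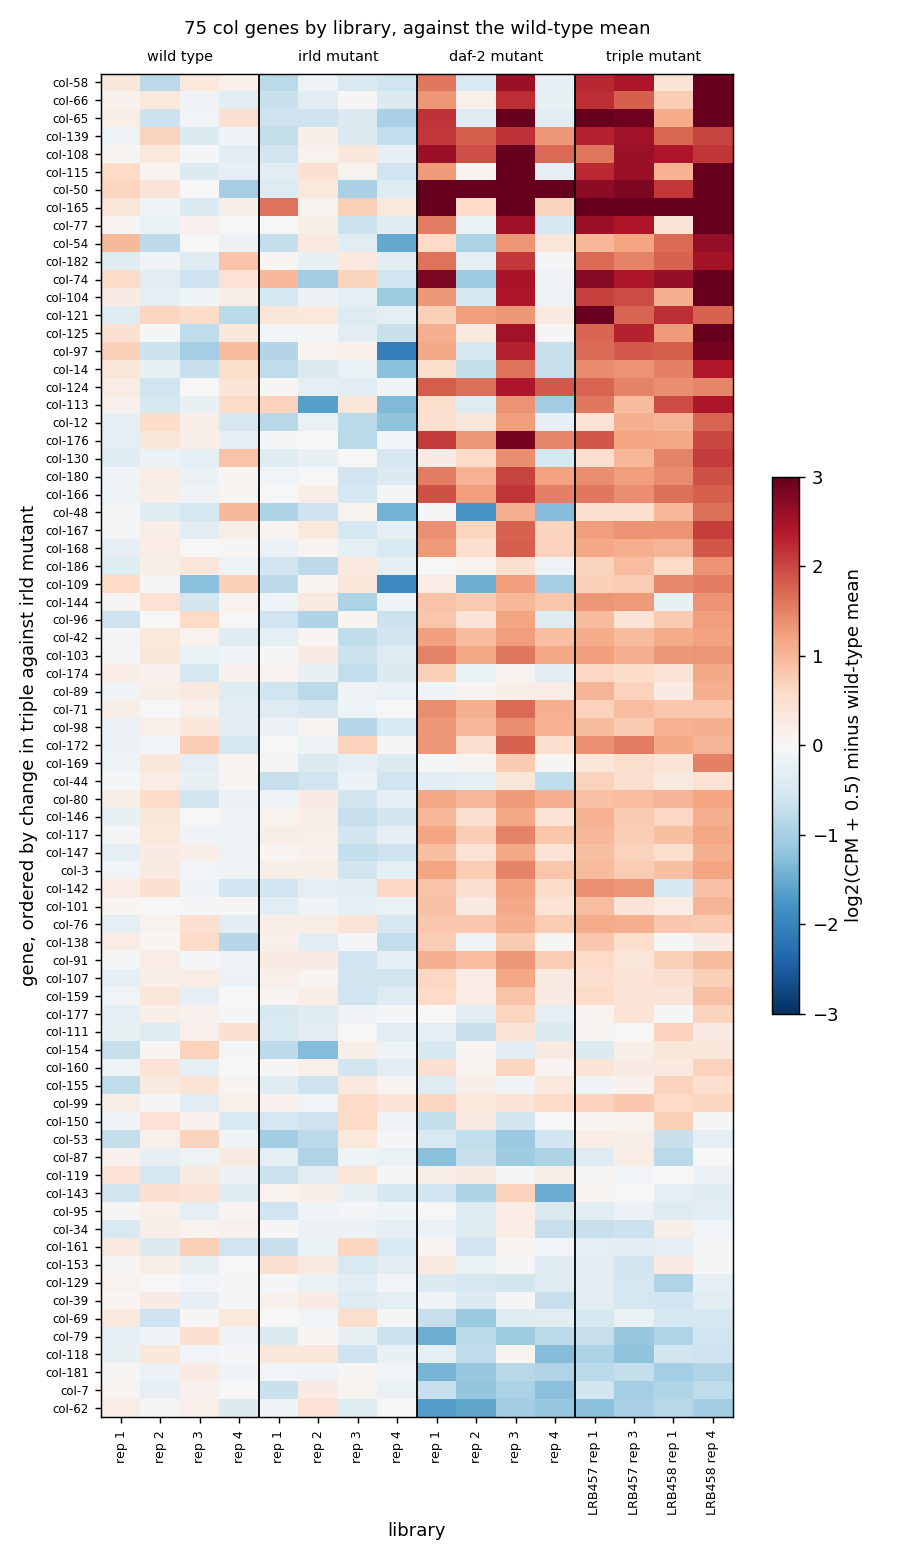
Level of the 75 col genes in each of the 16 libraries, as log2(CPM + 0.5) minus the wild-type mean, in the order of the change in triple-mutant larvae against irld larvae; colours end at 3 on either side. Most rows are red in the daf-2 and triple-mutant columns, the lowest rows are blue there, and daf-2 replicates 2 and 4 are paler than replicates 1 and 3 in many of the upper rows.

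By abundance, calls fell as follows. Of the 14 members with a mean over 100 CPM, 9 rose and 0 fell in daf-2 larvae against wild type, and 12 rose and 1 fell in triple-mutant larvae against irld larvae. Of the 28 members between 5 and 100 CPM, 10 and 21 rose and none fell in either comparison. Of the 33 members under 5 CPM, 5 rose and 6 fell in the first comparison, and 16 rose and 3 fell in the second. All 75 passed the filter of 1 CPM in at least 4 libraries. Of these, 8 passed only through libraries with daf-2(e1370) and 2, col-7 and col-62, only through libraries without it, so a difference was built into the passing of those 10. The 8 were col-54, col-58, col-66, col-108, col-115, col-139, col-182 and col-186. Of these 8, 2 are among the 24 that rose in daf-2 larvae and all 8 among the 49 that rose in triple-mutant larvae, and col-7 and col-62 are among those that fell in both comparisons. Among the other 65 members, 22 rose and 4 fell in daf-2 larvae, and 41 rose and 2 fell in triple-mutant larvae. Shares of all tested genes at each level, or without genes that passed in that way, are not given here. The counts by level and among the 65 are therefore a description.

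The most abundant member, col-42, was at 3254, 4204, 3625 and 2636 CPM in wild type, 2759, 3494, 2008 and 2310 in irld larvae, 7979, 6550, 8080 and 6289 in daf-2 larvae, and 7354, 6526, 7369 and 7788 in triple-mutant larvae. Every library with daf-2(e1370) was above every library without it. Its log2 fold change was 1.07 ± 0.17 (SE) in daf-2 larvae against wild type (edgeR adjusted p = 0.000442) and 1.46 ± 0.17 in triple-mutant larvae against irld larvae (adjusted p = 3.35e-05).

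col-103 showed the same separation. It was at 1117, 1455, 1000 and 1063 CPM in wild type and 1120, 1361, 731 and 871 in irld larvae. In daf-2 larvae it was at 3194, 2581, 3433 and 2555 CPM, and in triple-mutant larvae at 2687, 2415, 2846 and 2873. The log2 fold changes were 1.34 ± 0.18 (edgeR adjusted p = 8.87e-05) and 1.41 ± 0.18 (adjusted p = 6.48e-05). col-98 rose by 1.17 ± 0.18 and 1.28 ± 0.19 on the log2 scale (edgeR adjusted p = 0.000426 and 0.000189), from means of 1258 ± 269 CPM in wild type and 995 ± 263 in irld larvae to 2830 ± 372 in daf-2 larvae and 2411 ± 209 in triple-mutant larvae (SD, n = 4).

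Not all abundant members followed. col-107 was at 1489 ± 253 CPM in wild type, 1304 ± 344 in irld larvae, 2267 ± 734 in daf-2 larvae and 2127 ± 192 in triple-mutant larvae (SD, n = 4). Its log2 fold change was 0.61 ± 0.21 in daf-2 larvae, which did not pass (edgeR adjusted p = 0.0637), and 0.71 ± 0.21 in triple-mutant larvae, which did (adjusted p = 0.029). For col-160 the values were 0.32 ± 0.19 (edgeR adjusted p = 0.262) and 0.56 ± 0.19 (adjusted p = 0.0452). The second call of both genes was lost without line LRB457 or line LRB458. For col-107 it was also lost without irld replicate 3 or 4, LRB457 replicate 1 or LRB458 replicate 4, where the log2 fold change was 0.60 to 0.71. For col-160 this held for the same libraries and LRB457 replicate 3, at 0.47 to 0.64.

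col-39 (chromosome II) was the most abundant member with a negative value in both comparisons. It was at 1410, 1602, 1146 and 1304 CPM in wild type, 1480, 1619, 1038 and 1125 in irld larvae, 1240, 1015, 1394 and 835 in daf-2 larvae, and 1072, 941, 916 and 1095 in triple-mutant larvae. The wild-type and daf-2 libraries overlapped. Its log2 fold changes were -0.28 ± 0.17 (edgeR adjusted p = 0.277) and -0.39 ± 0.17 (adjusted p = 0.132), and neither passed.

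**Figure D3:**
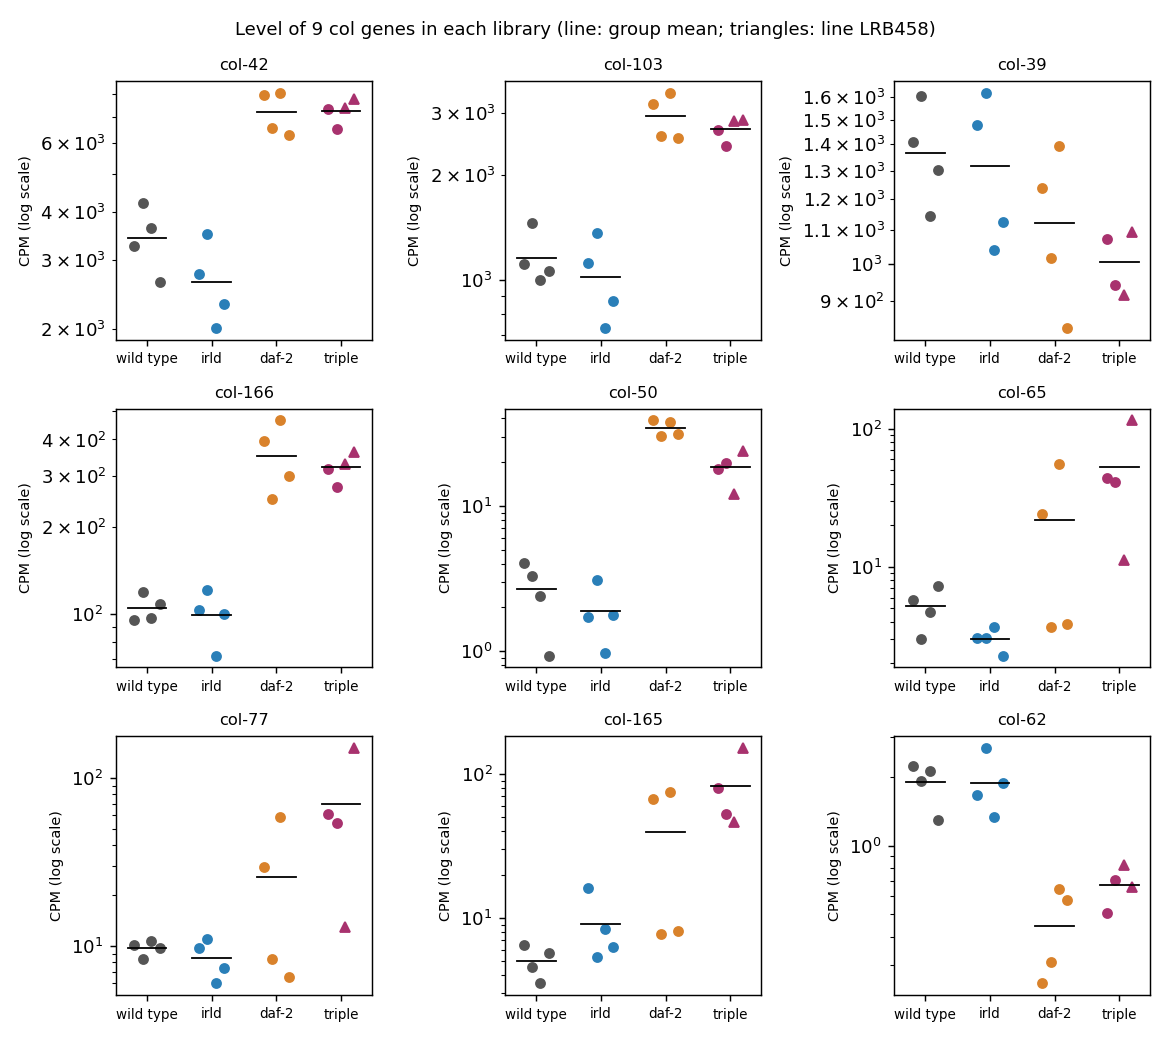
Level in each library of 9 col genes, in CPM on a log scale that differs between panels and does not start at 0, with the group mean as a line and line LRB458 as triangles. col-42, col-103, col-166 and col-50 separate all libraries with daf-2(e1370) from those without it, col-39 does not, and col-65, col-77 and col-165 have daf-2 replicates 2 and 4 close to the wild-type level.

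Some less abundant members had larger fitted log2 fold changes than col-42, col-103 and col-98; these differences between genes were not tested. col-166 (chromosome X) was at 95.2, 118.9, 97.0 and 108.2 CPM in wild type and 103.3, 120.7, 71.7 and 99.6 in irld larvae. It was at 395, 249, 466 and 299 CPM in daf-2 larvae and 315, 274, 330 and 363 in triple-mutant larvae. Its lowest library with daf-2(e1370) was above its highest without it, and the log2 fold changes were 1.75 ± 0.19 (edgeR adjusted p = 1.37e-05) and 1.70 ± 0.19 (adjusted p = 1.87e-05). The X-linked col-180 rose by 1.51 ± 0.21 and 1.79 ± 0.21, and col-176, also X-linked, by 2.08 ± 0.33 and 1.83 ± 0.33 on the log2 scale. Their edgeR adjusted p-values were 0.000114 and 2.88e-05 for col-180, and 0.000679 and 0.00152 for col-176.

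col-50 (chromosome I) had the largest rise in daf-2 larvae among members with a mean of at least 5 CPM. It was at 4.02, 3.30, 2.40 and 0.933 CPM in wild type and 1.73, 3.11, 0.972 and 1.77 in irld larvae. In daf-2 larvae it was at 38.8, 30.3, 37.5 and 31.5 CPM, and in triple-mutant larvae at 18, 19.6, 12.1 and 23.9. The 4 daf-2 libraries were close to each other and above all 4 triple-mutant libraries. The log2 fold changes were 3.69 ± 0.35 (edgeR adjusted p = 6.84e-06) and 3.29 ± 0.36 (adjusted p = 2.4e-05). The difference of triple-mutant larvae from daf-2 larvae, -0.91 ± 0.30, did not pass (edgeR adjusted p = 0.701).

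A further set of members varied widely within daf-2 larvae. For 17 members the highest daf-2 library was over 5 times the lowest, against 5 members in wild type, 7 in irld larvae and 5 in triple-mutant larvae. The 7 include 2 with a library at 0, col-54 and col-108. Of all tested genes, 4.72% had such a spread in daf-2 larvae, 3.46% in wild type, 3.09% in irld larvae and 2.73% in triple-mutant larvae. In all 17, replicates 1 and 3 were both above replicates 2 and 4, an order seen in 74.7% of the 75 members and 31.1% of all tested genes. The order is also that of these libraries on the first component, and its share among all tested genes with such a spread is not given here. The part of that library difference in the results was not tested, beyond refitting without the libraries, as given with each gene. Without daf-2 replicates 2 and 4 and LRB458 replicate 1, 33 members rose and 4 fell in daf-2 larvae, and 52 rose and 3 fell in triple-mutant larvae. These 3 libraries were picked from their place in an earlier analysis of these data, so the larger counts are a description. The share of all tested genes called in that refit is not given here.

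col-65 was at 5.80, 3.02, 4.73 and 7.32 CPM in wild type and 3.07, 3.04, 3.64 and 2.28 in irld larvae. It was at 24.2, 3.70, 55.6 and 3.86 CPM in daf-2 larvae and 44.1, 41.2, 11.3 and 115.2 in triple-mutant larvae. Replicates 2 and 4 of daf-2 larvae lay within the wild-type range, while all 4 triple-mutant libraries were above irld larvae. The log2 fold change of 2.06 ± 0.82 against wild type did not pass (edgeR adjusted p = 0.105), and that of 4.14 ± 0.88 against irld larvae did (adjusted p = 0.00512). Without LRB458 replicate 4 the second value was 3.44 (edgeR adjusted p = 0.0148).

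col-77 was at 9.70 ± 0.997 CPM in wild type and 8.51 ± 2.22 in irld larvae (SD, n = 4). It was at 29.7, 8.39, 59 and 6.5 CPM in daf-2 larvae and 61.2, 53.7, 13 and 151 in triple-mutant larvae. daf-2 libraries overlapped wild type and triple-mutant libraries did not overlap irld larvae. The log2 fold change was 1.41 ± 0.70 in the first comparison (edgeR adjusted p = 0.191) and 3.04 ± 0.72 in the second (adjusted p = 0.00974), where it was 2.35 without LRB458 replicate 4 (adjusted p = 0.0323).

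col-165 (chromosome X) rose in both comparisons in spite of the same spread. It was at 6.48, 4.53, 3.53 and 5.67 CPM in wild type and 16.2, 5.37, 8.38 and 6.28 in irld larvae. It was at 67.6, 7.71, 75.5 and 8.14 CPM in daf-2 larvae and 79.6, 53.2, 46.7 and 152 in triple-mutant larvae. Each daf-2 library was above every wild-type library, although replicates 2 and 4 exceeded the highest by little. The log2 fold changes were 2.97 ± 0.74 (edgeR adjusted p = 0.0145) and 3.19 ± 0.72 (adjusted p = 0.00718). The first call was lost when only the 2 groups were fitted (2.96, edgeR adjusted p = 0.0525). With daf-2 replicates 2 and 4 and LRB458 replicate 1 left out, the first value was 3.79 (adjusted p = 0.000233).

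col-74 and col-104 followed the pattern of col-65 and col-77. The log2 fold change of col-74 was 1.78 ± 0.76 in daf-2 larvae (edgeR adjusted p = 0.13) and 2.86 ± 0.77 in triple-mutant larvae (adjusted p = 0.0192). The second call was lost without line LRB458, irld replicate 2 or 4, or LRB458 replicate 4, at 2.44 to 2.65. It was also lost with no filter on low counts. For col-104 the values were 1.28 ± 0.58 (edgeR adjusted p = 0.156) and 2.83 ± 0.61 (adjusted p = 0.00526). The largest log2 fold change of any member, 4.68 ± 1.07 (edgeR adjusted p = 0.00722), was that of col-58 in triple-mutant larvae against irld larvae; it was named after its values were seen. It rested on low levels of 0.128, 0.495, 0.304 and 0.228 CPM in irld larvae against 4.81, 5.44, 0.973 and 18.5 in triple-mutant larvae, and was 3.70 without LRB458 replicate 4. col-58 passed the filter only through libraries with daf-2(e1370), so a rise was built into its passing; with no filter on low counts the value was 4.71 (edgeR adjusted p = 0.0255).

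The members that fell were few and mostly low in abundance, and apart from col-7 they were named after their values were seen. col-62 (chromosome I) was at 2.25, 1.92, 2.13 and 1.29 CPM in wild type and 1.67, 2.69, 1.34 and 1.88 in irld larvae. It was at 0.250, 0.308, 0.648 and 0.581 CPM in daf-2 larvae and 0.506, 0.710, 0.827 and 0.656 in triple-mutant larvae. The libraries with and without daf-2(e1370) did not overlap. Its log2 fold changes were -2.07 ± 0.34 (edgeR adjusted p = 0.000577) and -1.47 ± 0.32 (adjusted p = 0.00417), and the second call was lost without line LRB457, at -1.34. col-62 and col-7 passed the filter only through libraries without daf-2(e1370), so a fall was built into their passing; with no filter on low counts the values of col-62 were -2.06 (edgeR adjusted p = 0.000401) and -1.44 (adjusted p = 0.00822).

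col-7, a collagen of the adult cuticle, is the neighbour of col-62 on the opposite strand and fell as well. It was at 1.72 ± 0.244 CPM in wild type and 1.57 ± 0.529 in irld larvae, and at 0.610 ± 0.200 in daf-2 larvae and 0.774 ± 0.182 in triple-mutant larvae (SD, n = 4). The log2 fold changes were -1.49 ± 0.32 (edgeR adjusted p = 0.00418) and -1.01 ± 0.30 (adjusted p = 0.0288). The first call was lost without daf-2 replicates 2 and 4 and LRB458 replicate 1 (-1.2, edgeR adjusted p = 0.0543). The second call was lost in 10 alternative fits: without those 3 libraries, with the replicate number as a block, with no filter on low counts, without either triple-mutant line and without irld replicate 2 or 3, LRB457 replicate 3, or LRB458 replicate 1 or 4, at -1.06 to -0.84. The X-linked col-181 fell by 1.25 and 0.93 on the log2 scale (SE 0.18 for both; edgeR adjusted p = 0.000184 and 0.00155), from 4.25 ± 0.605 CPM in wild type to 1.78 ± 0.371 in daf-2 larvae (SD, n = 4).

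col-79, col-87 and col-129 fell in daf-2 larvae against wild type and did not pass in triple-mutant larvae. For col-87 the log2 fold changes were -1.40 ± 0.34 (edgeR adjusted p = 0.0106) and 0.19 ± 0.32 (adjusted p = 0.754). For col-79 they were -1.38 ± 0.30 (edgeR adjusted p = 0.00524) and -0.69 ± 0.30 (adjusted p = 0.123). The call of col-129, -0.52 ± 0.17 (edgeR adjusted p = 0.0413), was lost in 12 alternative fits, among them those without any 1 of the libraries compared other than wild-type replicate 3, at -0.58 to -0.48. Among abundant members only col-118 fell, and only in triple-mutant larvae. It was at 406, 405, 210 and 276 CPM in irld larvae and 165.4, 137.8, 220.5 and 209.6 in triple-mutant larvae, which overlap. Its log2 fold change was -0.82 ± 0.27 (edgeR adjusted p = 0.0478), and the call was lost in 12 alternative fits, among them those without any 1 of the libraries compared other than irld replicate 3, at -0.91 to -0.67.

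The 2 comparisons of daf-2(e1370) share no library, but both were taken from the same model, with a shared estimate of the spread. Of the 24 members that rose in daf-2 larvae, 23 (95.8%) also rose in triple-mutant larvae, which is 46.9% of the 49 there. The same overlap over all tested genes was not computed, so this overlap is a description of the members only. Of the 6 and 4 that fell, 3 were the same genes: col-181, and col-7 and col-62, which passed the filter only through libraries without daf-2(e1370). Neither comparison called 18 members. Across the 75 genes, which are not independent replicates and come from shared libraries, the log2 fold changes of the 2 comparisons had Pearson's r of 0.82 and Spearman's rho of 0.82. Across all tested genes these were 0.76 and 0.64. The 75 include the members that passed the filter only through libraries with, or only through libraries without, daf-2(e1370). Neither r nor rho was computed without those members. The log2 value was larger in the irld background for 61 members and smaller for 14.

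**Figure D4:**
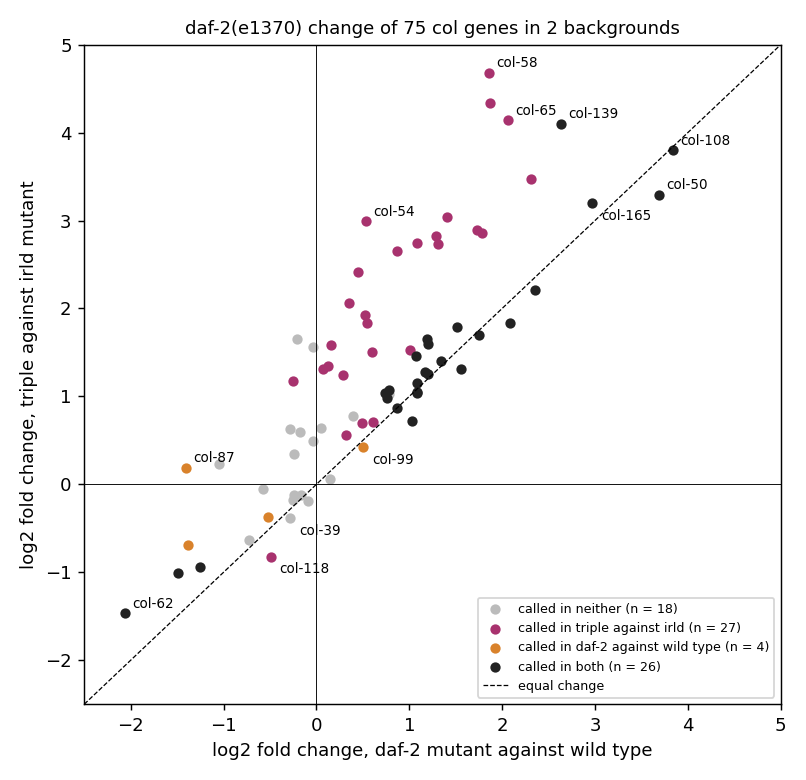
Log2 fold change of each of the 75 col genes in daf-2 larvae against wild type (horizontal) and in triple-mutant larvae against irld larvae (vertical), coloured by the comparison that called it, with the line of equal change dashed. Most points lie above the line, and the 27 called in triple-mutant larvae alone reach up to 4.68.

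The 26 members that rose in triple-mutant larvae without passing in daf-2 larvae include 13 of the 17 with the wide spread in daf-2 larvae. Of the 23 that rose in both, 1 had that spread. A pass in 1 comparison and not in the other does not show that the changes differ, and the interaction test below bears on this. The 1 member that rose in daf-2 larvae alone was col-99, the transmembrane collagen, at 0.51 ± 0.15 (edgeR adjusted p = 0.0327) and 0.42 ± 0.15 (adjusted p = 0.0623). Its call was lost in 6 alternative fits: with only the 2 groups, without the 3 libraries that stood apart, and when daf-2 replicate 1, daf-2 replicate 4, or replicate 2 or 3 of wild type was left out, at 0.41 to 0.52.

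The interaction term asks whether daf-2(e1370) changed a gene differently with and without the irld alleles. edgeR called no member in either direction, where 0.0142% of all tested genes were called higher and 0.0498% lower, and DESeq2 called none. At an unadjusted p under 0.05 there were 12 members, all with a positive interaction, a log2 value that was higher in the irld background, that is 16% where 6% of all genes lay under that p in either direction. For col-87 among them, the value was -1.40 against wild type and 0.19 in the irld background. The median interaction of the members was 0.45 on the log2 scale. The smallest adjusted p was 0.564, for col-44, and the authors' deposited table of the interaction also called 0 members, with a smallest adjusted p of 0.41.

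col-44 and col-89 had the lowest interaction p-values and were named after their values were seen. col-44 (chromosome X) was at 2.39, 2.95, 2.06 and 2.58 CPM in wild type and 1.34, 1.48, 2.13 and 1.48 in irld larvae. It was at 1.87, 1.97, 3.31 and 1.27 CPM in daf-2 larvae and 4.30, 3.67, 3.11 and 3.55 in triple-mutant larvae. daf-2 larvae overlapped wild type, and all 4 triple-mutant libraries were above all 4 irld libraries, with an interaction of 1.43 ± 0.36 on the log2 scale. col-89 had an interaction of 1.24 ± 0.32 (edgeR adjusted p = 0.573), from 4.81 ± 1.02 CPM in wild type, 3.46 ± 0.898 in irld larvae and 5.06 ± 0.57 in daf-2 larvae to 8.62 ± 2.27 in triple-mutant larvae (SD, n = 4).

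With daf-2(e1370) present, adding the irld alleles gave no call. In triple-mutant larvae against daf-2 larvae, edgeR and DESeq2 called 0 members in either direction, where edgeR called 0.0142% of all genes higher and 0.0782% lower. At an unadjusted p under 0.05, 9 members were higher and 2 lower, 14.7% of members where 6.51% of all genes were. The smallest adjusted p was 0.607, for col-89. The libraries did not overlap for 3 members on the higher side, col-89, col-121 and col-186, where 2.02% of all genes had that pattern. On the lower side this held for 2 members, col-50 and col-71, with 4.30% of all genes.

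The irld alleles alone gave no call either. In irld larvae against wild type, edgeR and DESeq2 called 0 members, where edgeR called 0.00711% of all genes higher and 0% lower. At an unadjusted p under 0.05, 3 members were lower and 0 higher, 4% of members where 6.48% of all genes were: col-12, col-42 and col-44. The libraries did not overlap for 1 member on the lower side, col-101, where 1.32% of all genes had that pattern, and for 0 on the higher side, with 0.925%. The members' log2 values were negative for 68 of 75, with a median of -0.23 against -0.002 over all genes, and the smallest adjusted p was 0.69. This comparison shares the wild-type libraries with the daf-2 comparison and the irld libraries with the comparison of triple-mutant against irld larvae.

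Members with a stage known from earlier work were examined next. col-12, a larval collagen transcribed in each molting cycle after the furrow collagen dpy-7, was at 9.61, 17.2, 13.5 and 8.04 CPM in wild type and 6.34, 10.1, 6.44 and 4.74 in irld larvae. It was at 16.6, 14.9, 28.5 and 9.72 CPM in daf-2 larvae and 15.6, 25.1, 24.1 and 39.9 in triple-mutant larvae. daf-2 larvae overlapped wild type (log2 fold change 0.52 ± 0.35, edgeR adjusted p = 0.339), and triple-mutant larvae lay above every irld library (1.93 ± 0.36, adjusted p = 0.00188). col-144 had log2 fold changes of 1.01 ± 0.40 (edgeR adjusted p = 0.0973) and 1.53 ± 0.40 (adjusted p = 0.0134), and the second call was lost without line LRB457, at 1.2. The adult-stage collagen col-19 and the dauer collagen col-2 are no members, and reached at most 1.24 and 0.463 CPM in any library.

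By chromosome, the members lay 9 on I, 9 on II, 6 on III, 22 on IV, 15 on V and 14 on X. In that order, 1, 3, 2, 7, 4 and 7 rose in daf-2 larvae and 5, 5, 5, 14, 8 and 12 in triple-mutant larvae. The share of all tested genes called on each chromosome was not computed, so these counts are a description. No difference between chromosomes was tested. Neighbours within 10000 bases formed 9 clusters of 20 members, 7 pairs and 2 triplets. The X-linked triplet col-167, col-168 and col-169 lay in 1 orientation between bases 6323488 and 6330062 of the WBcel235 assembly. Its log2 fold changes in triple-mutant larvae were 1.65, 1.60 and 1.24, all called, and in daf-2 larvae 1.2, 1.2 and 0.28, of which the last did not pass. The call of col-169 in triple-mutant larvae was lost without line LRB458, at 0.87. The triplet on chromosome II differed among its members: between bases 10703613 and 10708287, col-79 fell in daf-2 larvae, col-39 did not pass, and col-80 rose by 1.08 ± 0.20 (edgeR adjusted p = 0.00141). These 3 genes also spanned 1.80, 1159 and 612 CPM per kb over all libraries.

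Some pairs cannot be read separately. col-117 and col-3 lie side by side on chromosome IV on opposite strands, at bases 8822962 to 8824195 and 8824783 to 8826013. The ratio of their CPM was 1.02 to 1.06 in all 16 libraries, with a coefficient of variation of 1.37%. The next steadiest pair of members, col-146 and col-147, varied by 4.94%. The authors' alignment kept reads with up to 2 places in the genome and assigned them to 1, so reads that match a pair of genes can be split between them. The sequences of this pair were not compared here, and the rises of col-3 (1.09 ± 0.18 and 1.04 ± 0.18) and col-117 (1.08 ± 0.19 and 1.05 ± 0.19) are uncertain as separate results. col-159 and col-160 overlap on the same strand. In all, 28 members overlap another protein-coding gene, most on the opposite strand, and whether counting used strand is not given in the sources used here. Members named above with such an overlap on the opposite strand include col-39, col-74, col-79, col-80, col-87, col-99, col-101, col-103, col-107 and col-121. The part of these overlaps in their values was not tested.

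Other genes of cuticle building were compared with the same fit, and each list's share is to be read against the 7.97% and 9.80% of all tested genes that rose in daf-2 and triple-mutant larvae. The furrow collagens form the circumferential grooves of the cuticle, and of their 5 tested genes 1 rose in daf-2 larvae (dpy-10, log2 fold change 1.34 ± 0.34, edgeR adjusted p = 0.0129) and 4 in triple-mutant larvae (dpy-2, dpy-3, dpy-7 and dpy-10), that is 20 and 80%. The list's median log2 fold change was 0.91 and 2.98, where that of all genes was -0.003 and -0.011. Of 6 tested collagens named for other body-shape phenotypes, 2 rose and 1 fell in daf-2 larvae and 3 rose and 1 fell in triple-mutant larvae, that is 33.3 and 50% higher, with medians of 0.50 and 1.83. sqt-3 rose by 1.69 ± 0.41 and 2.90 ± 0.42 on the log2 scale (edgeR adjusted p = 0.0123 and 0.000326). dpy-5 went the other way, at -3.05 ± 0.77 and -3.0 ± 0.78 (edgeR adjusted p = 0.015 and 0.0153), from a mean of 105 CPM in wild type, with libraries between 17.3 and 193, to 12.7 in daf-2 larvae.

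Of 14 tested genes that modify and process collagens, 2 rose in daf-2 larvae. These were phy-2, a prolyl 4-hydroxylase subunit that hydroxylates collagen, and pdi-3, a protein disulfide isomerase. In triple-mutant larvae 5 rose and 1 fell, the rises including dpy-18, the other main prolyl 4-hydroxylase subunit, at 1.04 ± 0.13 (edgeR adjusted p = 5.67e-05). The higher shares were 14.3 and 35.7%, and the medians of this list were 0.20 and 0.23. Of 24 tested cuticlins, which are non-collagen cuticle proteins, 1 rose in daf-2 larvae (4.17%, below the share of all genes) and 7 in triple-mutant larvae (29.2%), with medians of 0.32 and 0.49. Of 21 tested molting genes and regulators, 5 rose in daf-2 larvae, among them nhr-23, a nuclear receptor needed for molting, and blmp-1, a transcription factor of the epidermis. In triple-mutant larvae 9 rose, including lin-42, the worm's period homologue, and mlt-11, a protease inhibitor needed for molting. blmp-1 rose there too, at 0.59 ± 0.19 on the log2 scale (edgeR adjusted p = 0.038). nhr-23 and myrf-1, both called in daf-2 larvae, did not pass there, at 0.20 ± 0.21 and 0.16 ± 0.17 (edgeR adjusted p = 0.585 and 0.572). The higher shares were 23.8 and 42.9%, and the medians 0.51 and 0.65. None of the 4 collagens outside the cuticle, the basement membrane collagens emb-9, let-2 and cle-1 and the touch-neuron collagen mec-5, was called in either comparison. Their medians were 0.33 and 0.31. let-2 was just over the cut in both, at 0.53 ± 0.18 and 0.51 ± 0.18 on the log2 scale (edgeR adjusted p = 0.0516 and 0.0532). A list of 4 genes is too small to tell its share of calls from that of all genes. No gene of these lists was called in the other 3 comparisons. Among the genes that rose, dpy-2, cutl-2, cutl-9, cutl-11, cutl-14, cutl-28 and lin-42 reached 1 CPM in fewer than 4 libraries without daf-2(e1370). They could not pass the filter without libraries that carry the allele, so a rise was built into their passing. cutl-9, for one, was at most 0.718 CPM in wild type and 0.512 in irld larvae. Other genes of the lists were not examined for this, so the shares are a description.

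Outside the sheet, 83 further numbered col genes had a row in the count files. They were low: 35 reached 1 CPM in any library, 16 passed the filter and none exceeded 4.77 CPM. Of the 16, col-51 rose in both comparisons (log2 fold change 2.43 and 2.88, edgeR adjusted p = 0.00577 and 0.00207). col-33, col-45, col-61, col-141, col-145 and col-170 rose in triple-mutant larvae against irld larvae only. The rest of the 16 passed in neither comparison. Over all tested genes, 7.97% rose in daf-2 larvae and 9.80% in triple-mutant larvae. These genes were named after their values were seen. col-51 had means of 0.190 CPM in wild type and 0.126 in irld larvae, from summed counts of 11 and 8. It passed the filter only through libraries with daf-2(e1370), so a rise was built into its passing. Nor could col-33, col-45, col-61 and col-141 pass without those libraries, with means of at most 0.717 CPM in wild type and irld larvae. For the rest of the 16, the passing of the filter was not examined. The summed level of the 83 genes was 26.3 to 35.3 CPM in wild type, 24.5 to 31.8 in irld larvae, 27.6 to 39.5 in daf-2 larvae and 39 to 55.2 in triple-mutant larvae. The lowest summed level of the 75 members in any library was 8803 CPM.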

How the data were processed

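Gene counts were the values deposited by the authors for each of 16 libraries. Per the labels and the deposited description, polyA RNA was turned into libraries by a NEBNext Ultra II kit, reads were aligned with Bowtie 1.2.2 to the WormBase WS273 genome, keeping reads with up to 2 places at 1 of them, and counted per gene with HTSeq 0.11.2; a strand setting is not given in the sources used here. The authors ran edgeR 3.24.4 for their deposited interaction table, which gave the members' symbols, a log2 fold change and an adjusted p-value per gene. From the counts, the 14058 genes that reached 1 CPM in 4 or more libraries were fitted by edgeR 4.0.16 in R 4.3.3, as 1 model of 4 groups with TMM factors and quasi-likelihood tests, Benjamini-Hochberg adjusted over all genes. The standard error is the log2 fold change divided by the square root of the test's F. Entries that name no gene stayed out of library sizes: reads in no feature were 1.99 to 3.07% and ambiguous reads 1.84 to 2.59%. Lengths and positions came from Ensembl release 115 (WBcel235). The fit was tested on simulated data. p-values measure the spread between libraries labelled as biological replicates. Deviations of same-numbered libraries did not pair them. Members, lists and tests were chosen with earlier results of these data known. Members named by rule were the 6 called members with the largest change in each direction of the daf-2 comparisons (mean at least 5 CPM, groups not overlapping), the 6 highest per length, and members of known stage. Other members were named for their length, position, count ratio or values, and not each of them is marked where named. No sequence is printed, and sequence features were not analysed here.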

Additional observations from a re-analysis of the deposited data

Results flagged for a closer look

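Of 140 groups of 4 libraries examined, those of 35 members described with their values, 9 had a library far from the others in the gap relative to the range, and chance flags about 1 in 20 groups. col-176 was at 9.05 CPM in irld mutant replicate 3, below the other libraries of that group. In LRB458 replicate 4, col-74 was at 126 CPM, above the other triple mutant libraries. The same library was highest for the neighbours col-167, col-168 and col-169, at 115.3, 29.1 and 7.68 CPM. In daf-2 mutant replicate 3, col-169 was at 4.41 CPM, above the others of that group. In LRB458 replicate 1, col-144 was at 1.22 CPM, below the others. In wild-type replicate 2, col-3 was at 884 and col-117 at 870 CPM, above the others; these neighbours may share reads and count as 1 case. Causes were not tested.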

How the results depend on the processing

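In the daf-2 mutant against wild type, alternative fits called 20 to 33 members higher and 4 to 7 lower, and leaving out 1 library gave 19 to 26 higher and 5 to 6 lower. In the triple mutant against the irld mutant they called 37 to 52 higher and 1 to 5 lower, and leaving out 1 library gave 40 to 50 higher and 2 to 3 lower. The lower count moved from 4 to 2 with no filter on low counts, to 1 without line LRB457 and to 2 without line LRB458; fewer libraries or more genes enter these fits. The other 3 comparisons had 0 calls under every alternative. Shares of all tested genes called in the alternative fits are not given here. With the replicate number as a block the counts were 24 and 6, and 47 and 3; same-numbered libraries had correlations of -0.46 to 0.31, 9 of 24 pairs over 0.1, so the numbers were not used to pair libraries. Of 825 alternative values of 35 named members, 761 kept the call, 64 lost it and 0 reversed. The lost calls were those of col-7, col-44, col-62, col-74, col-99, col-107, col-118, col-129, col-144, col-160, col-165 and col-169; the cause was not tested. With another scaling the median of all genes lay between -0.01 and 0.07 on the log2 scale over the comparisons, against -0.016 to -0.002 in the main fit. Of the 33 members under 5 CPM, 11 and 19 were called in the daf-2 and triple mutant comparisons, against 10 and 21 of the 28 between 5 and 100 CPM. Shares of all tested genes at these levels are not given here. Whether depth limited the calls of low members was not tested.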
